A study of Mus musculus with 15 samples.

Results

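In small RNA from mouse testis, 413 piRNA loci were close to absent from mock-treated libraries but were recovered in every CMC-treated library. A locus is an interval on 1 strand of the mm10 genome to which reads were assigned, with its own start and end, so that products of 1 precursor that differ by a single nucleotide at either end are separate loci. The 413 loci were chosen for this pattern from 4808586 loci with a read in the CMC experiment, out of 8128951 in the whole series. A locus was taken when its raw counts summed to at most 3 over the 3 mock-treated libraries and to at least 30 over the 3 CMC-treated libraries, with at least 5 in each of the latter, and a locus that a library did not list was counted as 0. The contrast between CMC and mock treatment is therefore set by the choice and is only described here. Counts of loci that pass a test of it are given as description too. With the conditions exchanged, 23 loci met the same rule. The number depended on the libraries used: 806 loci met the rule without mock replicate 2, 161 without CMC replicate 1, 258 without CMC replicate 2 and 212 without CMC replicate 3.

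The RNA was total RNA from the testes of male C57Bl/6 mice aged 8 weeks, and all 5 groups of 3 libraries shared this source. In the CMC experiment, RNA was either mock treated (a group that the labels also call untreated) or treated with CMC. In the immunoprecipitation experiment, an antibody against Ψ was used, and the input, the bound fraction (Ψ-IP) and the flow-through were sequenced from libraries made with the kit of another maker. Total counts per library were 35618956 to 58399368 for mock, 24154811 to 48909154 for CMC, 16571184 to 25063656 for input, 11575705 to 23935827 for Ψ-IP and 14305933 to 21494965 for flow-through. The sources do not say whether the libraries of a group came from different animals, so the spread between them may be technical. The samples are bulk tissue, in which fewer cells of a type and less RNA per cell cannot be told apart.

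piRNAs are the germline small RNAs that bind PIWI proteins, and in mouse testis most come from long single-stranded precursors transcribed from piRNA clusters. Their 5′ end is cut from the precursor and usually carries uridine, which the PIWI protein holds in a pocket, while the 3′ end is trimmed and 2′-O-methylated. Ψ is an isomer of uridine. CMC forms a stable adduct on it that blocks reverse transcriptase, and in longer RNAs the cDNA then ends just 3′ of the modified base. For small RNAs, the authors instead took loss from CMC-treated libraries as the sign of Ψ. The loci described here were gained with CMC, and whether they relate to Ψ was not tested.

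Most of these loci had the same 3′ end as a row that was abundant in mock-treated libraries and started a few nucleotides further downstream. The rows below show this for 8 loci. These had the highest CMC sums among the distinct starts, 1 to 4 nt downstream of the abundant row, that lay inside a single annotated exon together with the 12 bases upstream, outside UTRs and coding sequence. Loci that cross an exon boundary could not be read in this way. Each line gives the position of the locus and then the sequence of the most abundant mock row with the same 3′ end, 5′ to 3′ as DNA, read from GENCODE transcripts on GRCm38 (the assembly of mm10). Capitals mark the 5′ bases of the abundant row that lie outside the locus, so the lower-case letters are the locus itself. Names of genes are the exons that hold it.
chr17:27355736-27355759 on the plus strand, in Gm49794 and Mir7217: TCggaacttgtatcttgtgagacaga
chr10:66705016-66705041 on the plus strand, in Gm31181: TGtgtttgaacatctggacccagctagc
chr15:83356246-83356270 on the minus strand, in 1700001L05Rik: TTTCacagatgaggaaactgaagcttagg
chr17:27308374-27308397 on the minus strand, in Gm49793: TTTCtgggaactctctcaaaagaacacc
chr7:73817768-73817796 on the plus strand, in Gm21269: Tttcacttcagttgaaatgatcactctacc
chr7:125332100-125332127 on the minus strand, in 4933440M02Rik: Tgattgtagatcgtgatgcacagtgcagt
chr7:125333010-125333037 on the minus strand, in 4933440M02Rik: Tgagacaaatggatagctggcatgaagtt
chr17:27356012-27356031 on the plus strand, in Gm49794: Tgaactggaccaggaggaaga

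At chr17:27355736-27355759, the first of these, mock-treated libraries held 0, 2 and 0 reads and CMC-treated libraries 45, 35 and 49. The row that starts 2 nt upstream and ends at the same base held 3836, 6368 and 4531 reads in mock-treated and 5465, 2817 and 3203 in CMC-treated libraries. In the CMC experiment the shorter form was thus found mainly with CMC, beside a long form that was present in all 6 libraries. The input libraries, which were not treated with CMC, held 11, 5 and 5 reads of the shorter form. The locus at chr10:66705016-66705041, inside an ORR1E element (an LTR retroelement of the ERVL-MaLR family), was at 0 in all 3 mock-treated libraries and at 37, 26 and 33 in CMC-treated libraries, and had no read in the 9 libraries of the immunoprecipitation experiment. At chr15:83356246-83356270, inside an MIRb element (a SINE), mock-treated libraries held 0, 2 and 1 reads and CMC-treated libraries 45, 24 and 29, beside 11161, 16507 and 9948 mock reads of the row 4 nt longer.

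Summed over the 413 loci, the level was 4.745, 4.863 and 5.042 CPM (reads scaled to 1000000 reads of the library total) in the mock-treated libraries and 198.7, 241.9 and 274.6 CPM in the CMC-treated libraries. The mock sum was 0 at 104 loci, 1 at 87, 2 at 98 and 3 at 124. The CMC sum had a median of 44 reads and ran from 30 to 367, and was under 40 at 158 loci and 100 or more at 31. Of all 556583 loci tested, 1.07% passed an adjusted p-value of 0.01 as higher with CMC (edgeR quasi-likelihood test, Benjamini-Hochberg adjustment), and so did 413 of the 413, which the choice itself brings about.

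The highest CMC counts were at chr4:57360458-57360482 on the minus strand, with 0, 2 and 1 reads in mock and 156, 84 and 127 in CMC. The row 2 nt longer at its 5′ end held 1354, 2000 and 1392 reads in mock and 2769, 1167 and 1445 in CMC. The second, chr10:85767694-85767719 on the plus strand, had 0, 1 and 2 reads in mock and 127, 61 and 71 in CMC, and the row 3 nt longer at its 5′ end 727, 1278 and 708 in mock and 981, 462 and 437 in CMC. Both are intergenic and outside annotated repeats. The third, chr10:75839037-75839064 on the plus strand, held 1, 0 and 2 reads in mock and 100, 63 and 88 in CMC. chr7:73785750-73785771, in an intron of Gm10619, held 1, 2 and 0 in mock and 102, 49 and 92 in CMC. Of the 12 loci with the highest CMC sums, 6 had no mock read and 8 had at most 3 reads over the 9 libraries of the immunoprecipitation experiment.

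Another 5 of these 12 lay in 4 piRNA clusters on chromosome 2, at chr2:151139877-151159617, chr2:151246999-151267045, chr2:151314092-151335569 and chr2:151400665-151421851, which together held 25 of the 413 loci. Loci of 27 nt in these 4 clusters gave like counts. chr2:151145887-151145913 held 86, 33 and 47 CMC reads, chr2:151320054-151320080 held 78, 39 and 76, chr2:151260764-151260790 held 98, 25 and 58, and chr2:151414331-151414357 held 95, 34 and 48. No mock-treated library held a read at any of the 4. How reads with several alignments were assigned is not given in the sources used here. Whether the same reads were counted at more than 1 of these positions was not tested, and these loci are not counted as independent.

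Some loci just outside the limit on mock reads had higher CMC counts than any inside it. The 5 loci with the highest CMC sums just outside it had mock sums of 5 to 9. chr7:69886032-69886059 on the minus strand held 0, 5 and 0 mock reads and 628, 316 and 308 CMC reads, more than any of the 413, and chr7:69886033-69886059, 1 nt shorter at its 3′ end, held 2, 3 and 1 mock reads and 270, 152 and 155 CMC reads. chr7:52909520-52909545 had 3 reads in each mock-treated library and 422, 199 and 283 with CMC. chr1:92996748-92996773 had 3, 1 and 3, and 337, 203 and 353. chr12:98400624-98400651 had 3, 3 and 2, and 319, 177 and 222. In all, 860 loci met the CMC minimum with a mock sum of 4 to 10. Just inside the limit, 30 loci had a CMC sum of 30. The first 5 of these by chromosome and position, on chromosomes 1, 2 and 4, included chr1:178483793-178483811, in a B1F2 element (a SINE), with no mock read and 11, 11 and 8 CMC reads, and chr2:92542512-92542538, with 0, 2 and 1 mock reads and 14, 7 and 9 CMC reads. The other 3 were chr2:92562547-92562574, chr2:127692065-127692093 and chr4:94284206-94284229, with mock sums of 1, 1 and 3.

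The 413 loci were shorter than other loci. No locus in the CMC experiment was longer than 33 nt. The lengths of the 413 ran from 18 to 33 nt with a median of 27, and 337 (81.6%) were within the 24 to 33 nt usual for piRNAs. They are set here beside 216650 other loci with the same CMC minimum and the same range of CMC sums, whose median was 28 nt. Of the 413, 267 (64.65%) were 24 to 28 nt, compared with 41.9% of those other loci, and 13 (3.15%) were 30 nt or longer, compared with 33.5%. Lengths of 14 to 23 nt were found for 76 (18.4%), compared with 10.3%. Of these 76, 72 shared their 3′ end with an abundant mock row, and the median length of those rows was 25 nt. Loci that share a start or overlap are not independent, so these shares are given without a test. The 860 loci just outside the mock limit were alike in length, with a median of 27 nt and 5.35% at 30 nt or longer.

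**Figure D1:**
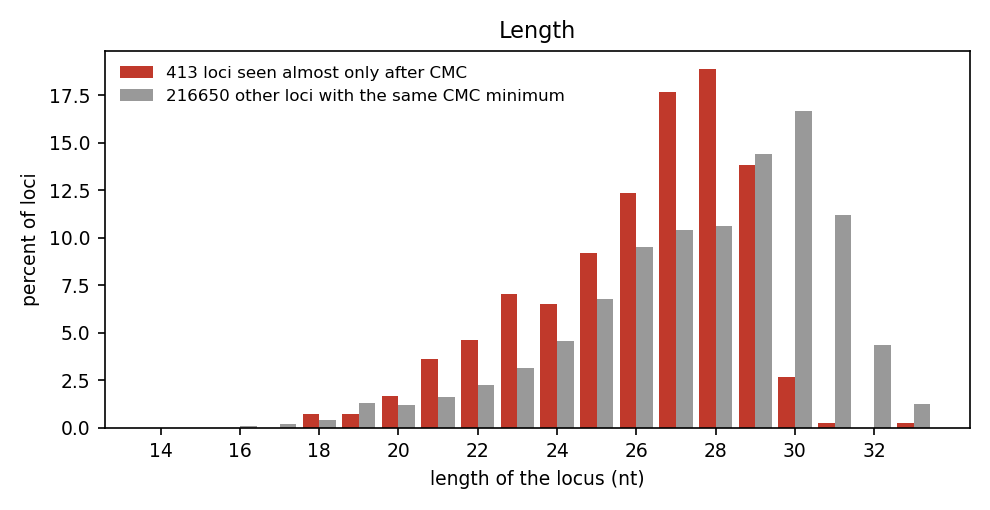
Length in nt (horizontal axis) and percent of loci of each length (vertical axis) for the 413 loci seen almost only after CMC (red) and for 216650 other loci with the same CMC minimum (grey). The red bars are highest at 28 nt, with 18.9% of loci, and the grey bars at 30 nt, with 16.7%.

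Nearly every one of these loci overlapped an abundant mock row, as did most other loci. An abundant mock row is a row with at least 100 reads summed over the 3 mock-treated libraries. Such a row overlapped 407 of the 413 (98.5%) on the same strand, and always by at least 50% of the locus. The share was 92.7% of the 216650 other loci and 98.8% of the 860 loci just outside the mock limit. It shared the 3′ end of 399 loci (96.6%) and the 5′ end of 38 (9.20%), and 368 (89.1%) shared the 3′ end only. The share with a common 5′ end depended on the minimum, at 29.5% for rows of at least 20 mock reads and 3.39% for rows of at least 1000, and was 5.66% of the loci that met the rule without CMC replicate 3. Of the 216650 other loci, 41.6% shared a 3′ end with an abundant mock row other than themselves, 68.6% shared a 5′ end, and 11.5% shared the 3′ end only. Many of those other loci were themselves abundant in mock-treated libraries, so the 860 loci just outside the mock limit are the closer comparison, and of these 92.6% shared a 3′ end and 19.65% a 5′ end. Of the 23 loci seen almost only in mock-treated libraries, 10 shared a 3′ end and 3 a 5′ end with a row that was abundant with CMC.

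Where the 3′ end was shared, the 5′ start lay downstream of the most abundant such row at 396 of 399 loci. It lay 1 nt downstream at 105 loci, 2 nt at 168, 3 nt at 60 and 4 nt at 39, so that 372 of 399 (93.2%) were within 1 to 4 nt. Among the other loci with a shared 3′ end, 58.45% started downstream and 46.0% started 1 to 4 nt downstream, and among those just outside the mock limit 97.6% and 90.95%. A distance of 2 nt was the most frequent among the 413, and 1 nt among the loci just outside the limit. The 413 loci had 320 distinct 5′ starts and 395 distinct 3′ ends.

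**Figure D2:**
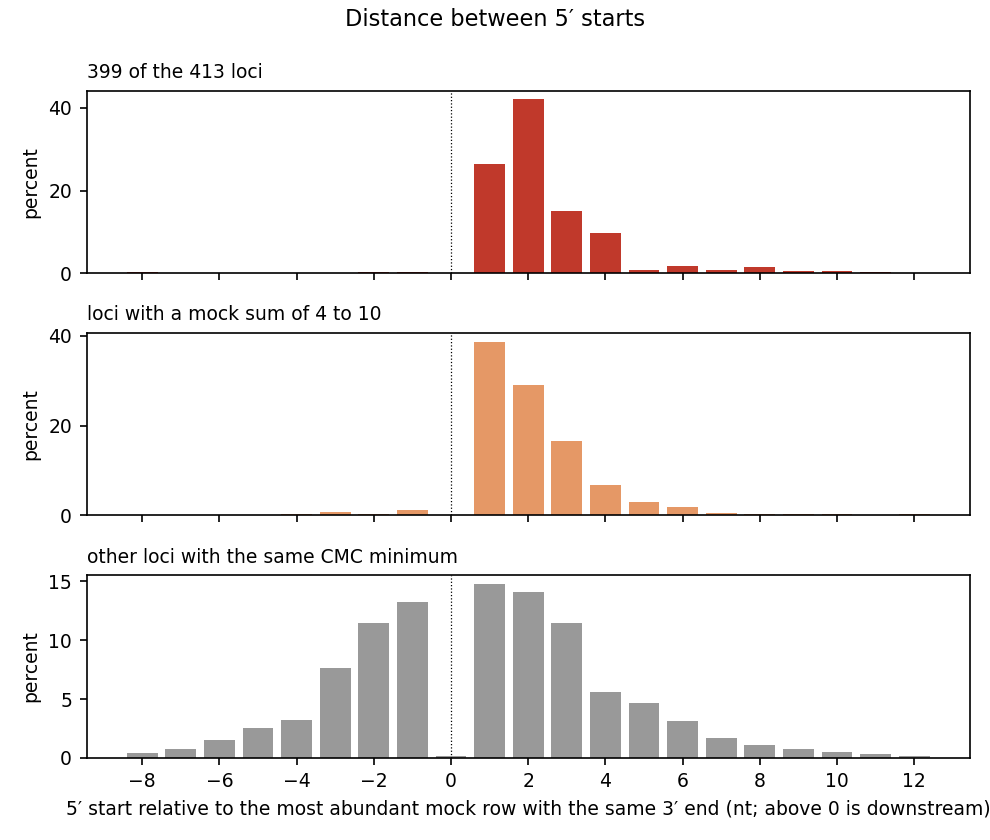
Distance in nt from the 5′ start of the most abundant mock row with the same 3′ end to the 5′ start of a locus (horizontal axis, above 0 is downstream) and percent of loci with a shared 3′ end (vertical axis, a scale of its own in each panel). The panels show 399 of the 413 loci, the loci with a mock sum of 4 to 10, and the other loci with the same CMC minimum. The 413 peak at 2 nt, with 42.1%, while the bottom panel has bars on both sides of 0.

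The most abundant mock rows that shared a 3′ end with these loci numbered 381, with a median length of 29 nt and mock sums of 116 to 95455 reads (median 4099). Summed, they made up 24168.7 to 24530.9 CPM in mock-treated and 21902 to 23596.1 CPM in CMC-treated libraries. Their median log2 ratio of CMC to mock CPM was -0.03, with 174 rows higher and 207 lower. At the median locus, 1.77 reads were counted in CMC-treated libraries per 100 reads of the abundant row, compared with 0.0262 in mock-treated libraries. The highest value with CMC was 44.6 per 100.

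Loci with the same 5′ start and several 3′ ends formed the largest groups. Loci that overlapped on 1 strand fell into 284 groups, of which 200 held a single locus, and the largest held 8. One group of 8 lay on the minus strand at chromosome 12, in a MER94B element (a DNA transposon of the hAT-Blackjack family), and its members made up 8 of the 9 loci in DNA transposons. In 7 of these 8 the 5′ base was 98400651, while 3′ ends ran from 98400627 to 98400634, and the abundant mock row with the same 3′ end began at 98400653 for each of the 8. chr12:98400627-98400651 held 0, 3 and 0 mock reads and 64, 31 and 45 CMC reads, chr12:98400633-98400651 held 1, 1 and 0 and 29, 24 and 42, and chr12:98400632-98400651 held no mock read and 16, 5 and 38 CMC reads. The start was thus common to 7 loci, and each of the 8 shared its 3′ end with a long form.

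A second group of 8, on the minus strand of chromosome 7, began at 3 adjacent bases, 69886058, 69886059 and 69886060, with the abundant mock rows beginning at 69886061. chr7:69886033-69886058 held 1, 0 and 2 mock reads and 75, 26 and 26 CMC reads, and chr7:69886034-69886059 held 1, 0 and 0 and 34, 26 and 17. chr7:69886034-69886060, which starts 1 nt downstream of the abundant rows, held 2, 1 and 0 mock reads and 29, 13 and 13 CMC reads. It was also found in the input libraries, with 4, 2 and 1 reads, where the other loci named here from this group had none. The third group held 5 loci that began at chr17:27355736, the start of the first sequence shown above, and ended at 27355756, 27355757, 27355759, 27355762 and 27355763. Each shared its 3′ end with an abundant mock row that began at 27355734. The locus ending at 27355762 held 1, 0 and 0 mock reads and 53, 35 and 33 CMC reads.

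The loci came from many piRNA clusters. They lay in 62 of 646 listed clusters and on 17 chromosomes, with 195 on the plus and 218 on the minus strand. The cluster at chr17:27269742-27371971 held 39 of them, chr6:127772025-127854021 held 28, chr12:98369021-98458701 held 26, chr2:92515043-92616945 held 24 and chr7:69874042-69960706 held 23. Per 1000 of the other loci with the same CMC minimum, these 5 clusters held 2.07, 2.88, 2.81, 1.92 and 3.58. By the gene annotation, 270 loci were intergenic, 86 in introns, 48 in exons outside coding sequence and UTRs, 6 in UTRs and 3 in coding sequence.

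Annotated repeats held 70 of the 413 loci (16.9%), compared with 14.3% of the other loci with the same CMC minimum. Of these, 31 were in LTR retroelements (7.51%, compared with 7.64%), 17 in LINEs (4.12%, compared with 3.44%), 13 in SINEs (3.15%, compared with 2.47%) and 9 in DNA transposons (2.18%, compared with 0.716%). Among LTR retroelements, 16 were ERVL-MaLR, 7 ERV1, 5 ERVL and 3 ERVK. The highest CMC counts in a LINE were at chr2:92555193-92555218, in L2b, with no mock read and 69, 42 and 59 CMC reads, and at chr6:127817750-127817774, in L2, with 1, 0 and 1 mock reads and 50, 27 and 39 CMC reads. In LTR retroelements they were at chr9:54238670-54238696, in RMER10A within an intron of Cyp19a1 (the aromatase gene), with 0, 0 and 1 mock reads and 57, 49 and 44 CMC reads, and at chr17:27308374-27308397, in MTEa, with no mock read and 22, 33 and 43 CMC reads. In SINEs they were at chr15:83356246-83356270, given above, and at chr11:103447008-103447034, in B1, with 0, 1 and 2 mock reads and 35, 24 and 31 CMC reads. No repeat class thus held most of these loci.

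Bases could be read for few of the starts. The 372 loci that began 1 to 4 nt downstream had 287 distinct starts, of which 32 (11.2%) had sequence, read in the same way or from RefSeq promoter windows. The first base of the abundant row was T (uridine in the RNA) at 32 of 32, compared with 91.35% of 2981 starts of the other loci at the same distances. The base just upstream of the shorter form was T at 19, C at 9, G at 4 and A at 0 of the 32, compared with 43.8% T, 20.3% C, 12.04% G and 23.9% A among the others. Where the distance was 1 nt, this base is the first base of the abundant row, and it was T at 14 of 14, compared with 88.7% of the others. At a distance of 2 nt it was T at 5 of 10, compared with 18.8% of 895 others, C at 3 and G at 2. At 3 nt it was T at 0 of 4, compared with 22.1%, with C at 2 and G at 2. At 4 nt it was T at 0 and C at 4 of 4, compared with 21.6% T and 30.1% C. The shorter form itself began with T at 11 of 32 (34.4%), compared with 74.2% of the others. With 32 starts, these counts describe the readable part of the set, and the remaining 255 starts had no sequence here.

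Reads starting 1 to 4 nt downstream also made up a larger share with CMC at 3′ ends that none of the 413 loci shares. This was asked at 88812 such ends of abundant mock rows, which include ends of loci just outside the limits. The libraries and the contrast are those of the choice, so these values are a description without a test. The most abundant start at each end was taken from the mock-treated libraries. Of the reads at these ends, 9.15%, 9.25% and 9.37% began 1 to 4 nt downstream of the most abundant start in the mock-treated libraries, and 10.5%, 10.7% and 11.1% in the CMC-treated libraries. The means were 9.25% ± 0.109 and 10.7% ± 0.315 (SD, n = 3 each), a difference of 1.49 percentage points. The groups did not overlap. Within replicate numbers the differences were 1.33, 1.41 and 1.73 percentage points.

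The other windows share their reads with this one, so a higher share in one lowers the shares of the rest. Reads at the most abundant start itself made up 80.1% ± 0.287 with mock and 78.7% ± 0.554 with CMC, 1.48 percentage points lower (SD, n = 3 each). Reads beginning 1 to 4 nt upstream made up 7.65% ± 0.0308 with mock and 7.34% ± 0.117 with CMC. Those beginning 5 to 12 nt downstream made up 2.07% ± 0.199 and 2.34% ± 0.333, and here the groups overlapped. Within replicate numbers the share was higher with CMC in each of the 3 pairs, by 0.178, 0.201 and 0.425 percentage points. At the 381 ends that the 413 loci share, the share starting 1 to 4 nt downstream was 8.67% with mock and 10.8% with CMC, and 8.66% and 10.1% without the 413 loci themselves.

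**Figure D3:**
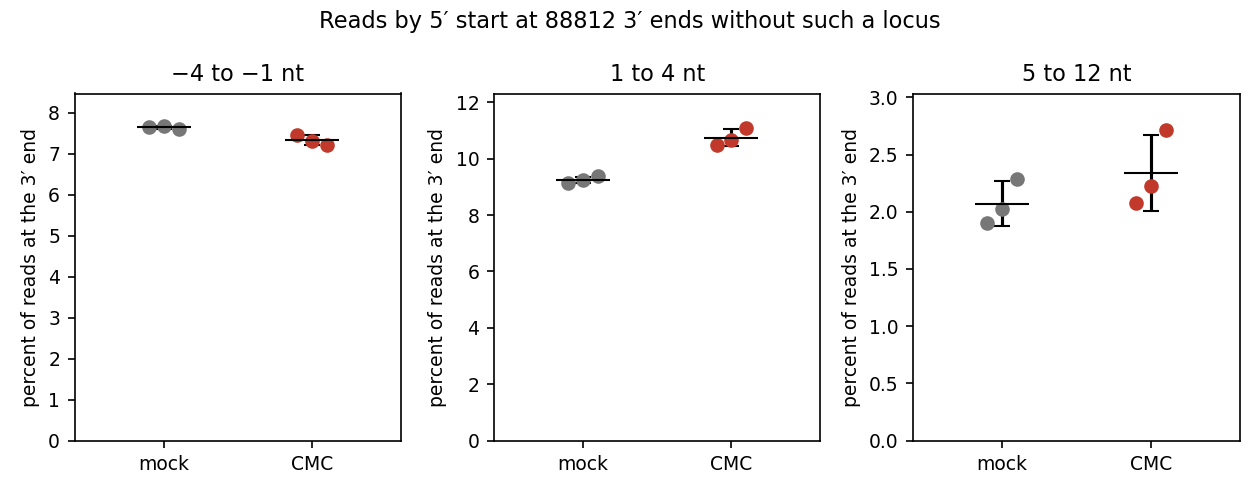
Percent of reads (vertical axis, from 0 in each panel) that begin 1 to 4 nt upstream (−4 to −1), 1 to 4 nt downstream or 5 to 12 nt downstream of the most abundant start, at 88812 3′ ends that none of the 413 loci shares. Points are the 3 mock-treated and 3 CMC-treated libraries, and horizontal marks with bars are the mean and SD. In the middle panel the CMC-treated libraries, at 10.5% to 11.1%, lie above the mock-treated ones, at 9.15% to 9.37%.

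The immunoprecipitation experiment, which was not used to choose the loci and in which no RNA was treated with CMC, held many of the same loci. A read in at least 1 input library was found for 306 of the 413, and in all 3 for 156 (37.8%), compared with 72.1% of the other loci with the same CMC minimum. No read in any of the 9 libraries was found for 87 (21.1%), compared with 2.40%. The other loci had higher counts, with a median CMC sum of 67 reads compared with 44, and the part of this in these shares was not tested. The summed level was 70.9, 79.4 and 75.1 CPM in input, 81.4, 62.1 and 42.4 CPM in Ψ-IP and 35.3, 49.6 and 42.8 CPM in flow-through. The low mock and high CMC levels are set by the choice, and the input libraries, which were not treated with CMC, lay between them. The input values overlapped with those of Ψ-IP and not with those of flow-through.

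Relative to the long forms the order was the same, with the mock and CMC levels again set by the choice. Per 100 reads of the 381 abundant rows, reads of the loci that share their 3′ ends numbered 0.0197 ± 0.000806 in mock-treated, 1.02 ± 0.200 in CMC-treated, 0.645 ± 0.0247 in input, 0.525 ± 0.186 in Ψ-IP and 0.368 ± 0.0495 in flow-through libraries (SD, n = 3 each). Kit and experiment differ between the mock-treated and the input libraries and cannot be told apart, and these levels were not tested across the experiments. The description as loci seen almost only after CMC thus holds within the CMC experiment only. Of the 413 loci, 53 had at least 5 reads in each input library, and for 36 (8.72%) the mean CPM was higher in input than in CMC-treated libraries, compared with 24.4% of the other loci with the same CMC minimum.

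**Figure D4:**
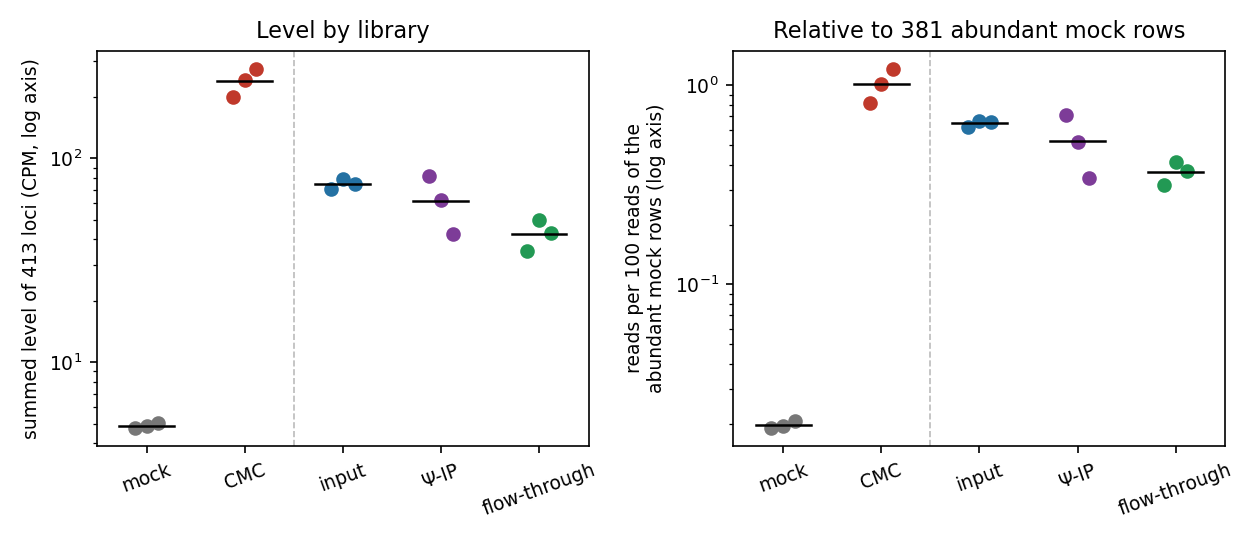
Left, summed level of the 413 loci in each library in CPM. Right, reads of the loci that share a 3′ end with an abundant mock row, per 100 reads of the 381 such rows. Both vertical axes are logarithmic, points are the 3 libraries of each group, horizontal lines are means, and the dashed line parts the experiments made with different kits. The input libraries, at 70.9 to 79.4 CPM, lie between the mock-treated ones, at 4.75 to 5.04 CPM, and the CMC-treated ones, at 199 to 275 CPM.

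Presence in the input libraries went with the distance of the 5′ start. Of the 105 loci that began 1 nt downstream of the abundant row, 69 (65.7%) had a read in all 3 input libraries and 5 had none in the 9 libraries. Of the 168 that began 2 nt downstream, 61 (36.3%) were in all 3 and 33 had none. Of the 99 at 3 or 4 nt, 22 (22.2%) were in all 3 and 29 had none, and of the remaining 41 loci 4 (9.76%) were in all 3 and 20 had none. Among the other loci with the same CMC minimum, the shares in all 3 input libraries were 72.7% at 1 nt, 69.3% at 2 nt, 63.9% at 3 or 4 nt and 73.0% for the rest. The median length of the 413 moved with the distance, at 28, 27 and 26 nt and 23 nt for the rest, and its part in these shares was not tested. The median CMC sums of the 413 at these distances were 44, 48 and 42 reads, compared with 78, 81 and 73 for the other loci. The part of this difference in these shares was not tested either. Summed levels in input were 37.2 ± 3.87 CPM at 1 nt, 29.002 ± 1.21 CPM at 2 nt and 6.46 ± 0.556 CPM at 3 or 4 nt (SD, n = 3 each), and in CMC-treated libraries 51.6 ± 4.99, 107 ± 19.0 and 57.1 ± 10.5 CPM. The loci nearest to the long form were thus those most often found without CMC.

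**Figure D5:**
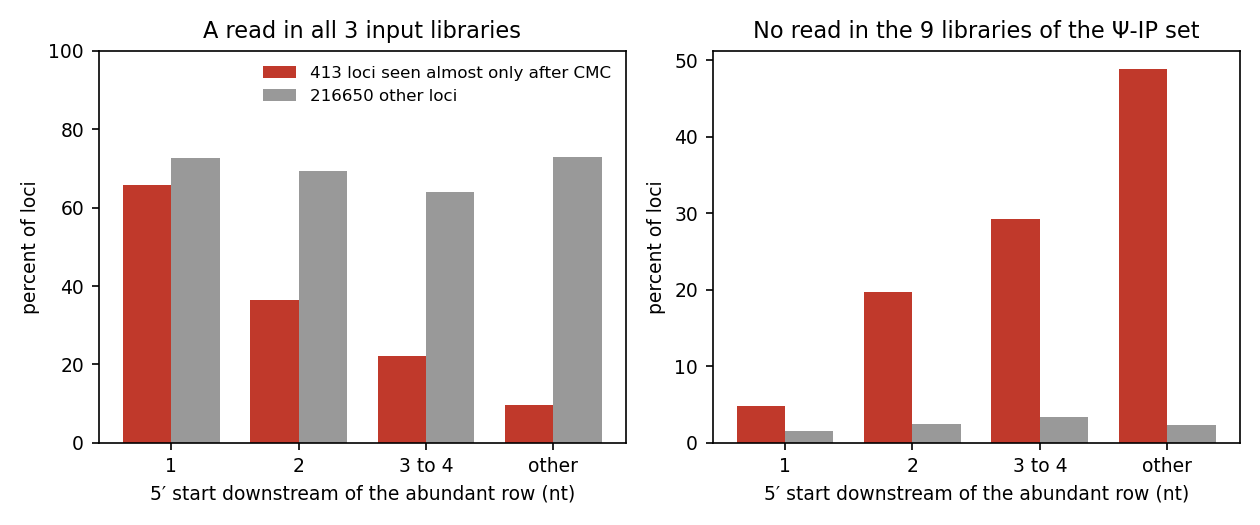
Percent of loci (vertical axis) with a read in all 3 input libraries (left) or with no read in the 9 libraries of the Ψ-IP experiment (right), by the distance in nt of the 5′ start downstream of the most abundant mock row with the same 3′ end (horizontal axis; other stands for another distance or no shared 3′ end). Red bars are the 413 loci and grey bars the 216650 other loci. Red bars fall from 65.7% at 1 nt to 22.2% at 3 to 4 nt on the left and rise from 4.76% to 29.3% on the right.

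The 5 loci with the highest counts in the immunoprecipitation experiment had reads in each of its 9 libraries. chr2:92572868-92572895, 1 nt shorter than the abundant row, held 0, 1 and 2 reads in mock and 34, 16 and 16 in CMC, and 101, 94 and 90 in input, 114, 62 and 77 in Ψ-IP and 127, 101 and 79 in flow-through. chr9:67734462-67734489 held 11, 13 and 9 reads in CMC, 64, 73 and 67 in input, 21, 14 and 34 in Ψ-IP and 85, 101 and 49 in flow-through, and was lower in Ψ-IP than in input (log2 fold change -1.41 ± 0.327 SE, adjusted p = 2.17e-04 in edgeR). chr15:59270991-59271020 held 24, 9 and 18 reads in CMC, 50, 25 and 31 in input, 11, 14 and 19 in Ψ-IP and 47, 59 and 32 in flow-through. These 3 loci, near 0 in mock-treated libraries, were common in the input libraries of the other experiment. chr11:107994928-107994957, antisense in an intron of Prkca, held 26, 15 and 15 reads in CMC, 46, 20 and 35 in input, 18, 16 and 39 in Ψ-IP and 31, 46 and 26 in flow-through. These 4 loci started 1 nt downstream of the abundant row. The fifth, chr5:113349063-113349095, shared no 3′ end with an abundant row and is described further on.

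Whether the antibody recovered these loci could be tested at few of them. Of the 413, 102 had more than 20 counts over the 9 libraries and entered the test of Ψ-IP against input, and 311 did not. Of the 102, 1 was higher and 13 were lower in Ψ-IP at an adjusted p-value of 0.01 (edgeR quasi-likelihood test, Benjamini-Hochberg adjustment over 686863 loci), compared with 4.95% higher and 11.1% lower of all loci tested. These are 0.980% and 12.7% of the 102, and the share that was lower is close to that of all loci. The median log2 fold change was -0.57, compared with -0.15 for all loci tested, but its place relative to all loci depended on the filter. Without a filter it was -1.19 over 317 of the 413, compared with -1.78, and with more than 100 counts it was -0.17 over 16, compared with -0.00116. The number called of the 102 was 9 without input replicate 2, compared with 24160 higher and 59950 lower of 686863 loci. It was 7 without input replicate 3, compared with 17096 higher and 48747 lower. With DESeq2 it was 7, compared with 23144 higher and 45086 lower. Without a filter on counts it was 9 of 317, compared with 16728 higher and 54579 lower of 4785318 loci.

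Loci that were lower in Ψ-IP included chr7:73817768-73817796 in Gm21269, one of the sequences above, with 38, 16 and 28 reads in input, 5, 1 and 1 in Ψ-IP and 0, 10 and 0 in flow-through (log2 fold change -3.23 ± 0.587 SE, adjusted p = 1.15e-06 in edgeR). chr7:125332100-125332127 in 4933440M02Rik held 25, 18 and 18 reads in input, 2, 1 and 0 in Ψ-IP and 13, 7 and 2 in flow-through (-3.97 ± 0.734, adjusted p = 1.84e-06 in edgeR). chr17:27355736-27355762 held 41, 12 and 23 in input, 4, 1 and 1 in Ψ-IP and 0, 2 and 6 in flow-through. chr6:127800676-127800700, in an MIRc element, held 14, 12 and 21 in input, 0, 0 and 1 in Ψ-IP and none in flow-through. At each of these 4 the input counts lay above those of both Ψ-IP and flow-through, and flow-through was not tested against input. chr2:151255079-151255107, which held 1, 1 and 0 mock reads and 74, 49 and 69 CMC reads, had 58, 71 and 60 reads in input, 25, 21 and 4 in Ψ-IP and 2, 5 and 3 in flow-through (log2 fold change -1.60 ± 0.345 SE, adjusted p = 6.29e-05 in edgeR).

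The locus that was higher in Ψ-IP was of a form that few of the 413 had. chr5:113349063-113349095 on the plus strand, 33 nt long and the longest of the 413, was at the greatest length found in the CMC experiment. It shared its 5′ end and not its 3′ end with abundant mock rows, as did 6 other loci of the 413. It held 0, 2 and 0 mock reads, 7, 15 and 8 CMC reads, 41, 18 and 21 reads in input, 44, 40 and 99 in Ψ-IP and 5, 8 and 4 in flow-through (log2 fold change 1.37 ± 0.325 SE, adjusted p = 3.28e-04 in edgeR). Without input replicate 3, no locus of the 413 was higher at this threshold, compared with 17096 of all 686863 loci tested.

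Only 6 of the 413 overlapped no abundant mock row. These were chr2:151260764-151260790, chr2:151260765-151260790 and chr2:151260768-151260790 on the minus strand, which belong to the chromosome 2 clusters above, and chr15:73164643-73164663, chr10:85744096-85744123 and chr1:178483793-178483811. chr15:73164643-73164663, 21 nt long, held no mock read, 47, 22 and 43 CMC reads, and no read in the immunoprecipitation experiment. chr10:85744096-85744123, 28 nt long, held no mock read and 16, 10 and 17 CMC reads, and was likewise absent from the immunoprecipitation experiment. These 6 were chosen for description after their values were seen.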

How the data were processed

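Small RNA from testis was sequenced by the authors in 15 libraries. They clipped adaptors with Cutadapt, kept reads of 14 to 44 nt, set tRFs aside, mapped to mm10 with Bowtie 2 at up to 3 mismatches, and intersected alignments with repeats and piRNA clusters using BEDTools. The deposited values are raw counts per interval, strand and repeat, without normalization. Intervals were 14 to 33 nt long in the mock-treated and CMC-treated libraries and 15 to 44 nt in those of the Ψ-IP experiment. Whether alignment was end to end is not given in the sources used here, and the files hold intervals, not reads, so unaligned 5′ bases would not be seen.

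Counts were joined by locus, and file starts were raised by 1. CPM are counts scaled to a library total of 1000000. Loci with more than 20 counts over 6 (CMC) or 9 (Ψ-IP) libraries were tested in R 4.3.3 with edgeR 4.0.16 (TMM, quasi-likelihood, Benjamini-Hochberg, 0.01), and with DESeq2 1.42.0 as an alternative. Scripts were tested on simulated data. Cluster intervals came from the study's source data.

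The loci, lists and windows were chosen with earlier results of these data known. Named loci were the 12 with the highest CMC sums, the 5 just inside (ties in the CMC sum by chromosome and start) and the 5 just outside the limits, the 5 with the highest counts in the Ψ-IP experiment, up to 5 of each of the 3 largest groups, the 2 highest of each repeat class and the 5 with the lowest adjusted p against input. Others named were chosen after their values were seen. Same-numbered mock and CMC libraries deviated together (correlations 0.134, 0.154 and 0.306 over 87515 loci with a mean above 50 counts), so the numbers may pair them. At a mean above 10 counts they were 0.0704, 0.0855 and 0.199, and above 200 counts 0.228, 0.255 and 0.407, so this depends on the minimum. For input and Ψ-IP the third was -0.0299, so they were not treated as paired.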

Additional observations from a re-analysis of the deposited data

How the results depend on the processing

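The number of loci that met the rule was 104 with a mock sum of 0, 1273 with a mock sum of 10 or fewer, and 223 with at least 10 reads in each CMC-treated library. It was 161 to 806 when 1 library was left out, since the limits then apply to fewer libraries. An abundant mock row overlapped 99.8% of the 413 at a minimum of 20 mock reads and 95.4% at 1000, shared the 5′ end of 29.5% and 3.39%, and shared the 3′ end of 86.7% at 1000. Leaving out 1 library, it shared the 5′ end of 5.66% to 9.26% and the 3′ end of 94.9% to 98.1%. With more than 100 counts, 3 of 16 were called in Ψ-IP against input, compared with 33321 higher and 43492 lower of 215214 loci. Without a filter 9 of 317 were called, compared with 16728 higher and 54579 lower of 4785318. With DESeq2 7 of 102 were called, compared with 23144 higher and 45086 lower of 686863. When 1 library was left out, 7 to 15 of 102 were called, compared with 17096 to 41167 higher and 42397 to 71271 lower of 686863. With CMC, 32 were called among loci with more than 100 counts, because 32 were tested. With the replicate number as a block, 10 were called in Ψ-IP against input, within 1.5 times of 14. Over all 686863 loci this fit called 28680 higher and 66284 lower. The count with CMC was 413 with this block as without it, 366 with DESeq2 and 397 to 413 when 1 library was left out. The choice of the loci sets this contrast. The difference of 1.49 percentage points at other 3′ ends was 1.499 and 1.518 at minima of 20 and 1000 mock reads, 1.44 with the most abundant start taken from all 6 libraries, 1.68 with it taken from the 3 input libraries, and 1.32 to 1.62 when 1 library was left out. These alternatives for the difference were added after the data were seen. Median length and the share in repeats stayed within their 95% interval over the 413 loci under each alternative run. Loci that overlap are not independent, so this describes the list only. The share in clusters was 100% in each run, and 99.99% among the other loci with the same CMC minimum. The Ψ-IP test was limited to loci with more than 20 counts by the filter.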
